A study of Homo sapiens with 8 samples.

Results

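The expression of 9 genes of the interferon response was examined in HuH7 cells, a human hepatoma-derived line used here as a stand-in for hepatocytes. They were chosen by symbol: 5 interferon-stimulated effectors (ISG15, IFIT1, IFIT3, IFI6 and MX1), the chemokine CXCL10 and the transcription factors IRF1, IRF3 and IRF9. All 9 were among the 15767 genes of the deposited count table, and all 9 had enough reads to be tested, with 32 to 1132 counts per library. Wildtype HuH7 cells were kept for 6 h at 1% oxygen without glucose and then for 6 h under normoxia, a cell model of ischemia and reperfusion called OGD/R. During reoxygenation the medium held DMSO alone (I/R+DMSO, n = 4) or 20 µM ginsenoside Rk2, a saponin of ginseng (I/R+Rk2, n = 4). Both groups therefore went through OGD/R, and cells without it were not analysed here. The libraries held 16374082 to 30310479 counts. Nothing in the labels says that the 4 libraries of a group came from separate cultures, so the p-values measure the spread between these libraries, which may be technical.

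The interferon response starts when sensors meet nucleic acid. In the cytosol, cGAS binds DNA and signals through STING, while RIG-I and MDA5 bind RNA and signal through MAVS. Both arms recruit the kinase TBK1, which phosphorylates IRF3, and IRF3 then switches on interferon genes and some interferon-stimulated genes directly. Secreted type I interferon binds IFNAR1 and IFNAR2, the kinases JAK1 and TYK2 phosphorylate STAT proteins such as STAT2, and these join IRF9 to form a complex that binds the interferon-stimulated response element (ISRE). Dimers of STAT proteins bind another element, GAS, and drive IRF1. In the injured liver, nucleic acid released from dying cells can feed these sensors.

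The promoters of the 9 genes show which of these elements each one carries. The stretches printed here are 30 bases long, lie upstream of RefSeq transcript starts on GRCh38.p14 and read 5′ to 3′ along the gene, with the matched element in capitals. An ISRE core was searched on both strands as TTTC, any 2 bases and TTTC, which reads GAAA, any 2 bases and GAAA from the other strand. GAS was searched as TTC, any 3 bases and GAA, which is its own reverse complement, and both were searched in the 250 bases before each start. In ISG15 (chr1:1013377-1013406, plus strand) 2 ISRE cores overlapped, and in IFIT1 (chr10:89392504-89392533, plus strand) 2 lay side by side. IFI6 (chr1:27672288-27672317, minus strand), IFIT3 (chr10:89332468-89332497, plus strand) and CXCL10 (chr4:76023699-76023728, minus strand) are shown with 1 core each. IRF1 (chr5:132490878-132490907, minus strand) and IRF9 (chr14:24161192-24161221, plus strand) held a GAS match and no ISRE core.
ISG15: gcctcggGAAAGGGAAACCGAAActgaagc
IFIT1: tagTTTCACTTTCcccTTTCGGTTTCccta
IFI6: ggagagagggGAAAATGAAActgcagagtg
IFIT3: gttccatcagTTTCACTTTCctttcccctt
CXCL10: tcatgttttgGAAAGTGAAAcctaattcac
IRF1: acagcctgatTTCCCCGAAatgacggcacg
IRF9: accacgtgatTTCTGGGAAaaggccctccc
Over all its windows IFIT3 held 4 ISRE cores, and IFI6 held 3. MX1 held 1 core, 186 bases before an alternative start, and a GAS match there overlapped it. IRF3 had no entry in the promoter table. Of the 8 genes with a window, 6 held an ISRE core, against 3.71% of the 27305 genes in the table, and 3 held a GAS match, against 8.09%. The genes were chosen as genes of the interferon response, so these shares are a description and not a test. A gene was counted over all its windows, of which IFIT3 had 2 and MX1 had 3. A match describes the letters and is not a measured binding site.

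The genes lie on 7 chromosomes in the GENCODE v29 annotation of GRCh38, the build that the submitters' processing notes name. ISG15 is on chromosome 1 at 1001138-1014540, and IFI6 is on the same chromosome at 27666061-27672218. IFIT3 (89327894-89340971) and IFIT1 (89392546-89406486) lie close together on chromosome 10. MX1 is on chromosome 21 at 41420304-41459214 and CXCL10 on chromosome 4 at 76021117-76023497. IRF1 is on chromosome 5 at 132481609-132490798, IRF3 on chromosome 19 at 49659569-49665875 and IRF9 on chromosome 14 at 24161053-24166565. Exons of IRF9 overlap those of AL136295.5 on the same strand, and exons of IRF3 overlap those of BCL2L12 on the opposite strand. Exons of IRF1 overlap those of AC116366.3 and C5orf56 on the opposite strand, and AC116366.3 had 2.75 ± 5.49 CPM with DMSO and 0.286 ± 0.550 CPM with Rk2 (SD, n = 4 each). The sources used here do not say whether reads were counted by strand, so reads of these overlapping genes cannot be told apart.

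Expressed per length, as FPKM, the 9 genes spanned a wide range of levels in I/R+DMSO. IRF3 was the most abundant at 35.0 ± 4.19 FPKM (SD, n = 4), followed by ISG15 at 31.85 ± 3.81 FPKM and IFI6 at 25.3 ± 3.47 FPKM. The libraries of IRF3 and ISG15 overlapped, as did those of ISG15 and IFI6. IRF9 came next at 15.1 ± 1.01 FPKM, then MX1 at 9.19 ± 0.801 FPKM and IRF1 at 6.73 ± 1.44 FPKM, and of these neighbours MX1 and IRF1 overlapped. CXCL10 (2.50 ± 0.122 FPKM), IFIT3 (1.49 ± 0.125 FPKM) and IFIT1 (0.785 ± 0.360 FPKM) were the lowest, and each was separate from its neighbours. By the mean over all 8 libraries, of all genes with an FPKM above 0, 84.1% were below IRF3 and 27.3% below IFIT1.

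Of the 9 genes, 2 fell with Rk2 and none rose. IFIT1 and IFI6 passed an adjusted p-value of 0.05 in edgeR's quasi-likelihood test, and the other 7 did not. Among all 12928 genes tested, 7.23% were called lower and 11.0% higher, which is 18.2% in either direction. With 9 genes, 2 calls are close to that background. The split of all calls moved with the scaling, from 935 lower and 1416 higher here to 1300 lower and 1246 higher with upper-quartile factors, where 3 of the 9 genes were called lower, and to 683 lower and 1643 higher with library size only, where 1 was. After the gene length correction it was 1243 lower and 1028 higher, with 1 of the 9 called lower. The log2 ratio of I/R+Rk2 to I/R+DMSO (log2FC) lay between -0.61 and 0.08 with a median of -0.18, where all genes tested had a median of 0.00 (-0.00211). It was negative in 7 of the 9 genes and in 50.3% of all genes. In the CPM of IFIT1, IFI6 and IRF3 every I/R+Rk2 library was below every I/R+DMSO library. This was so in 12.9% of all genes tested, the reverse in 15.4%, and the groups were separate either way in 28.2%.

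**Figure D1:**
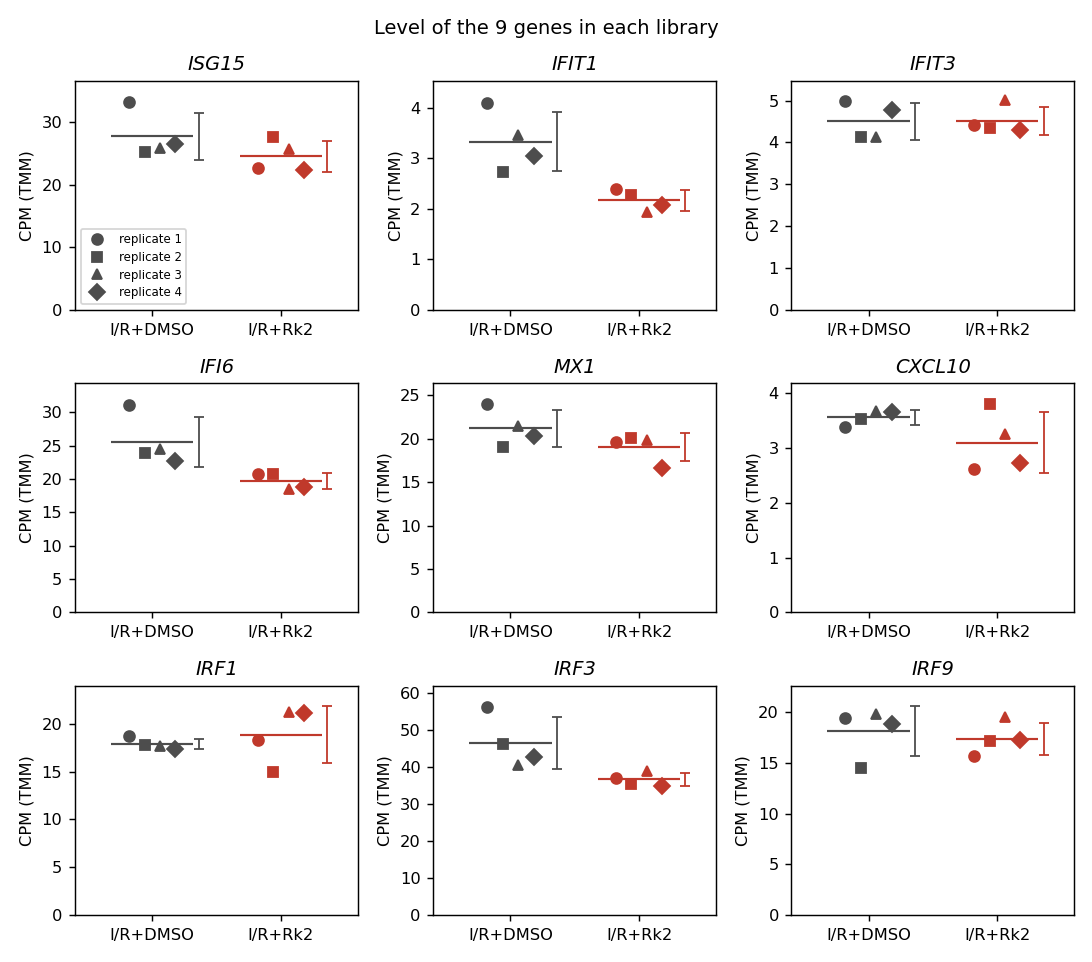
Level of each of the 9 genes in TMM-normalized counts per 1e6 reads (CPM, linear axes from 0) in the 4 I/R+DMSO libraries (grey) and the 4 I/R+Rk2 libraries (red). Symbols mark the replicate numbers, horizontal lines the means and bars the SD, and the groups are separate in IFIT1, IFI6 and IRF3 and overlap in the other 6 genes.

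IFIT1 encodes a protein that binds viral RNA lacking the host's cap methylation. Its level in replicates 1 to 4 was 4.08, 2.73, 3.47 and 3.05 CPM with DMSO and 2.39, 2.28, 1.93 and 2.07 CPM with Rk2. All Rk2 libraries were low, and the groups did not overlap. IFIT1 fell 1.53-fold, from 3.33 ± 0.586 to 2.17 ± 0.204 CPM (SD, n = 4 each, log2FC -0.61, SE 0.156, edgeR adjusted p 0.0303). It was the single gene of the 9 to pass the study's 1.5-fold threshold as well, as did 3.04% of all genes tested. The levels rest on 32 to 77 counts per library. The deposited FPKM did not separate the groups, at 0.719, 0.491, 0.622 and 1.31 FPKM with DMSO and 1.03, 0.986, 0.355 and 0.377 FPKM with Rk2, and limma on log2(FPKM + 1) gave a log2FC of -0.09 (adjusted p 0.799). The fall of IFIT1 was thus seen in the counts and not in the FPKM of the same libraries. The call was lost without DMSO replicate 1 or 3 or Rk2 replicate 2, 3 or 4, with adjusted p up to 0.0764.

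IFIT3 lies near IFIT1 and encodes a partner of the IFIT1 protein. Its levels were 4.99, 4.14, 4.13 and 4.78 CPM with DMSO and 4.42, 4.34, 5.02 and 4.29 CPM with Rk2. The groups overlapped throughout, with a log2FC of 0.00 (0.00112, SE 0.106, edgeR adjusted p 0.996) and a 95% interval of -0.21 to 0.21. Whether IFIT1 and IFIT3 changed unequally was not tested.

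IFI6 encodes a small membrane protein that interferon induces. It was at 31.1, 23.9, 24.5 and 22.6 CPM with DMSO and at 20.7, 20.7, 18.4 and 18.8 CPM with Rk2. Replicate 1 of I/R+DMSO stood above its group, and the other 3 were still above all Rk2 libraries. IFI6 fell from 25.6 ± 3.80 to 19.7 ± 1.22 CPM (SD, n = 4 each, log2FC -0.38, SE 0.106, edgeR adjusted p 0.0427). Without I/R+DMSO replicate 1 its log2FC was -0.27 (edgeR adjusted p 0.0368), and after a correction for gene length it was -0.23 (edgeR adjusted p 0.0519). The call was lost when any library other than DMSO replicate 1 or 4 was left out, with adjusted p up to 0.102.

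ISG15, a ubiquitin-like protein that is attached to other proteins, was at 33.3, 25.3, 25.9 and 26.5 CPM with DMSO and at 22.6, 27.5, 25.6 and 22.4 CPM with Rk2. Apart from the high replicate 1 of I/R+DMSO, the libraries of the groups were interleaved (log2FC -0.18, SE 0.110, edgeR adjusted p 0.290), and the log2FC was -0.08 without that library and -0.01 after the gene length correction. ISG15 is short, with 3.25% of genes shorter by the length that counts and FPKM imply. Over all genes the log2FC rose with length (Spearman's rho 0.388 across 12924 genes, which are not independent replicates). IFI6 was also short, with 5.28% of genes shorter, whereas 81.9% were shorter than IFIT1, whose log2FC moved to -0.76 under the same correction. The length of IFIT1 is uncertain, since it is a median over libraries whose counts and FPKM imply unlike lengths. In I/R+DMSO, 4.08 CPM went with 0.719 FPKM in replicate 1 and 3.05 CPM with 1.31 FPKM in replicate 4. The shift of IFIT1 under the correction rests on that length.

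MX1 encodes a dynamin-like GTPase that blocks viruses early in infection. Its levels were 24.0, 19.002, 21.4 and 20.3 CPM with DMSO and 19.6, 20.1, 19.8 and 16.7 CPM with Rk2. The groups overlapped (log2FC -0.15, SE 0.0928, edgeR adjusted p 0.279), and the 95% interval of the log2FC was -0.34 to 0.03. With 1 library left out it lay between -0.20 and -0.09.

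CXCL10 attracts activated T cells. It was at 3.39, 3.53, 3.69 and 3.65 CPM with DMSO, a narrow range, and at 2.62, 3.81, 3.26 and 2.73 CPM with Rk2. Replicate 2 of I/R+Rk2 was the highest of all 8 libraries, while the other 3 were below every DMSO library. The mean went from 3.57 ± 0.133 to 3.10 ± 0.548 CPM (SD, n = 4 each) without passing the threshold (log2FC -0.21, SE 0.140, edgeR adjusted p 0.338). With 54 to 80 counts per library, the 95% interval of the log2FC was -0.48 to 0.07, and with 1 library left out the log2FC lay between -0.32 and -0.13.

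IRF3, the transcription factor that TBK1 activates, was at 56.2, 46.3, 40.6 and 42.6 CPM with DMSO and at 37.0, 35.5, 39.0 and 35.0 CPM with Rk2. All Rk2 libraries were lower, by a small margin against replicate 3 of I/R+DMSO. IRF3 did not pass the threshold (log2FC -0.34, SE 0.102, edgeR adjusted p 0.0518), where DESeq2 gave an adjusted p of 0.0161. In the deposited FPKM the groups overlapped, with 40.7, 35.0, 30.8 and 33.5 FPKM with DMSO and 27.7, 26.7, 35.96 and 27.2 FPKM with Rk2, and limma on log2(FPKM + 1) gave a log2FC of -0.25 (adjusted p 0.205). BCL2L12, which overlaps it on the opposite strand, fell from 46.1 ± 2.49 to 39.1 ± 1.45 CPM (SD, n = 4 each) with a log2FC of -0.24 (edgeR adjusted p 0.0222), and it was named after its values were seen. How far reads of BCL2L12 enter the count of IRF3 was not tested.

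IRF9, the DNA-binding subunit of the complex with STAT2, was at 19.5, 14.5, 19.8 and 18.9 CPM with DMSO and at 15.7, 17.2, 19.5 and 17.2 CPM with Rk2. The groups overlapped, and the lowest library was one with DMSO (log2FC -0.06, SE 0.113, edgeR adjusted p 0.739). IRF1, a factor that interferon-gamma induces, was at 18.7, 17.8, 17.7 and 17.4 CPM with DMSO and at 18.4, 14.9, 21.2 and 21.1 CPM with Rk2. The Rk2 libraries lay on both sides of the narrow DMSO range (log2FC 0.08, SE 0.111, edgeR adjusted p 0.674). With 1 library left out the log2FC of IRF9 lay between -0.16 and -0.02 and that of IRF1 between 0.02 and 0.17.

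Replicate 1 of I/R+DMSO was the highest of the 8 libraries in 5 of the 9 genes, namely IRF3, ISG15, IFIT1, IFI6 and MX1. Over all genes tested it was the highest in 23.9%, the largest share of any library. Without it IFI6 and IRF3 passed (edgeR adjusted p 0.0368 and 0.0470) and IFIT1 did not (0.0540), so that 2 genes were again called lower.

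**Figure D2:**
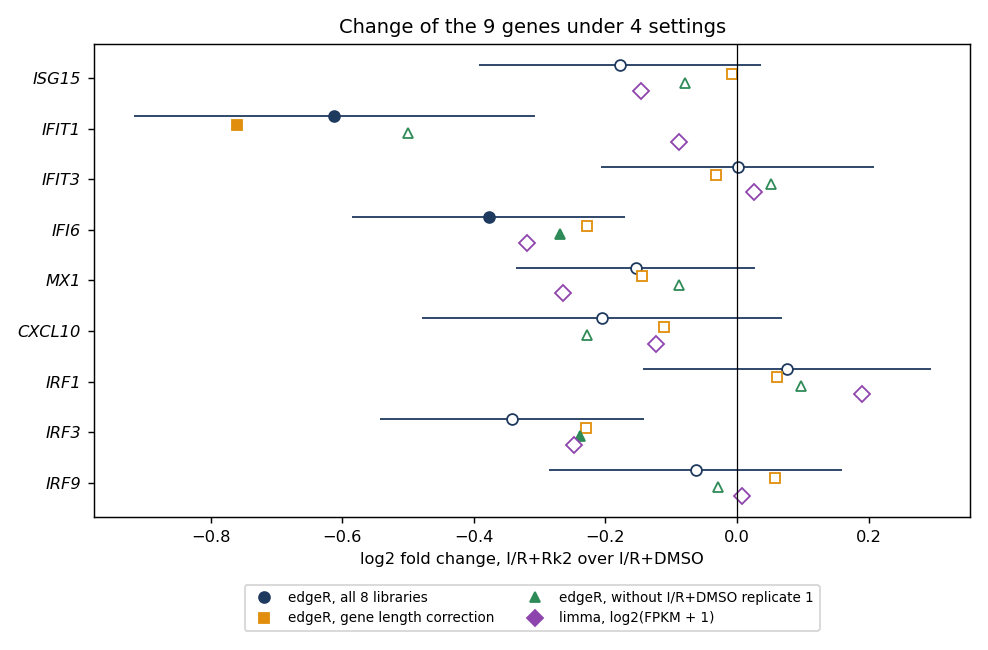
Log2 ratio of I/R+Rk2 to I/R+DMSO for the 9 genes with all 8 libraries (circles, with 95% intervals as lines), after the gene length correction, without I/R+DMSO replicate 1 and in limma on log2(FPKM + 1), as the legend marks them. Filled symbols have an adjusted p-value below 0.05, and the estimates for IFIT1 spread from -0.76 to -0.09.

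The interferons themselves were at or near 0. IFNB1 and IFNL1 were outside the count table and listed at 0 FPKM in every library, as were IFNG, IFNL2 and IFNL3. Of 21 interferon genes 6 were in the count table, all of the near-identical IFNA family, and their 6 counts came from 1 library, replicate 3 of I/R+Rk2. No interferon gene could be tested.

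The receptors and the kinases, STAT proteins and inhibitors that act on them were well covered. All 17 genes of this list were tested, 1 fell and 1 rose, 11.8% called against 18.2% of all genes, and the median log2FC was 0.01. IFNAR1, a subunit of the type I interferon receptor, was at 47.4, 48.7, 48.0 and 51.4 CPM with DMSO and at 56.8, 53.5, 55.6 and 54.6 CPM with Rk2. The groups were separate, and IFNAR1 rose (log2FC 0.17, SE 0.0454, edgeR adjusted p 0.0329). After the gene length correction its log2FC was 0.00 (0.00296, edgeR adjusted p 0.974), and the call was lost when any library other than DMSO replicate 1 or 4 was left out, with adjusted p up to 0.0852. The other receptor subunit IFNAR2 had a log2FC of -0.12, the kinases JAK1 of 0.04 and TYK2 of 0.01, and STAT2 of 0.06, and none of these passed (edgeR adjusted p 0.633 to 0.871). SOCS3, a feedback inhibitor of JAK-STAT signaling, was at 4.14, 4.19, 4.13 and 3.89 CPM with DMSO and at 2.26, 2.43, 2.60 and 2.68 CPM with Rk2. All Rk2 libraries were low, and SOCS3 fell (log2FC -0.72, SE 0.101, edgeR adjusted p 0.00354). That call was kept without any single library and after the gene length correction.

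The sensors that define the DNA arm had few reads. MB21D1, which encodes cGAS, had 6, 6, 6 and 8 counts with DMSO and 5, 4, 5 and 11 counts with Rk2. TMEM173, which encodes STING, had 7, 3, 5 and 11 counts with DMSO and 2, 5, 0 and 8 counts with Rk2. Both were below the count filter and were not tested. AIM2, IFI16 and ZBP1, which also sense nucleic acid, were listed at 0 FPKM. IRF7, which amplifies the response in many cell types, had 0 to 6 counts per library.

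**Figure D3:**
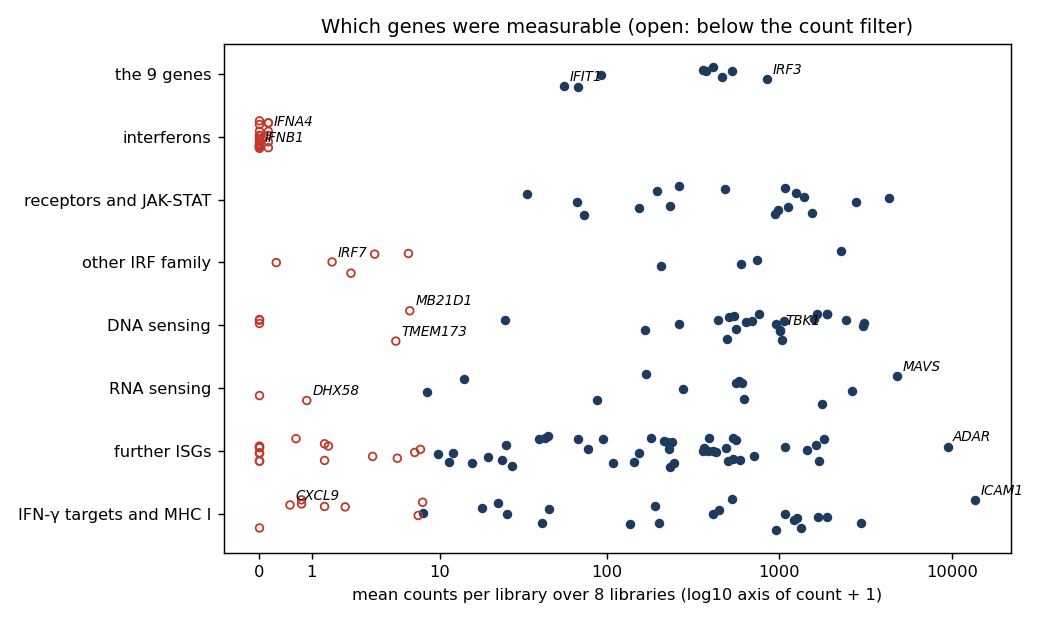
Mean counts per library over the 8 libraries for the genes of each list, on a log axis. Filled points passed the filter of at least 10 counts in at least 4 libraries and open points did not, and genes outside the count table, which were listed at 0 FPKM, are drawn at 0. The 9 genes all passed, and no interferon did.

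Of the 28 listed genes of the DNA arm 23 were tested, 4 fell and 3 rose, 30.4% called against 18.2% of all genes, and the median log2FC was -0.10. The kinases TBK1 and IKBKE, both able to phosphorylate IRF3, went in opposite directions. TBK1 was at 44.3, 42.4, 39.9 and 48.3 CPM with DMSO and at 53.5, 53.7, 50.8 and 55.0 CPM with Rk2, and rose (log2FC 0.28, SE 0.0653, edgeR adjusted p 0.0216). IKBKE was at 26.2, 29.7, 26.6 and 29.3 CPM with DMSO and at 21.0, 22.5, 23.1 and 21.3 CPM with Rk2, and fell (log2FC -0.35, SE 0.0658, edgeR adjusted p 0.0104). In both kinases the groups were separate, and both calls were kept after the gene length correction. TRIM56, a ubiquitin ligase of this pathway, rose (log2FC 0.19, edgeR adjusted p 0.0183), as did ENPP1, which breaks down the messenger made by cGAS (log2FC 0.25, edgeR adjusted p 0.0189). After the gene length correction neither passed, with a log2FC of -0.07 for TRIM56 and 0.07 for ENPP1. RNASEH2A, the catalytic subunit of RNase H2, fell (log2FC -0.24, edgeR adjusted p 0.0479), as did POLR3K, a subunit of RNA polymerase III, which can copy cytosolic DNA into RNA (log2FC -0.32, edgeR adjusted p 0.0138). RNASEH2A shares exons with THSD8 on the same strand, and it did not pass after the gene length correction (edgeR adjusted p 0.0687). The call of TBK1 was lost without DMSO replicate 2 or Rk2 replicate 1, 2 or 4, with adjusted p up to 0.0610, that of TRIM56 without Rk2 replicate 3 or 4, with adjusted p up to 0.0548, that of ENPP1 without Rk2 replicate 2 or 4, with adjusted p up to 0.0562, and that of RNASEH2A when any library other than DMSO replicate 1 or 4 was left out, with adjusted p up to 0.112.

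In the RNA arm 12 of 14 genes were tested, 1 rose and 1 fell, 16.7% called against 18.2% of all genes, and the median log2FC was 0.16. MAVS, the mitochondrial adaptor, went from 243 ± 10.0 to 222 ± 14.3 CPM (SD, n = 4 each) without passing the threshold (log2FC -0.13, SE 0.0552, edgeR adjusted p 0.132), and after the gene length correction it passed, with a log2FC of -0.43 (edgeR adjusted p 0.0169). TICAM1, the adaptor of the receptor TLR3, fell from 29.4 ± 1.14 to 25.4 ± 1.17 CPM (SD, n = 4 each, log2FC -0.21, SE 0.0563, edgeR adjusted p 0.0357). TRAF3, a ubiquitin ligase shared by several sensors, was at 16.5, 20.4, 20.7 and 14.0 CPM with DMSO and at 47.0, 19.7, 47.0 and 51.6 CPM with Rk2. In 3 of the 4 Rk2 libraries it was high, and in replicate 2 it was within the range of I/R+DMSO. TRAF3 rose (log2FC 1.21, SE 0.294, edgeR adjusted p 0.0278), and limma's voom with sample weights did not call it (adjusted p 0.0863). The deposited FPKM of TRAF3 went from 5.25 ± 0.378 to 6.46 ± 0.980 (SD, n = 4 each), and limma on log2(FPKM + 1) gave a log2FC of 0.25 (adjusted p 0.172). The call of TICAM1 was lost when any library other than DMSO replicate 1 or Rk2 replicate 3 was left out, with adjusted p up to 0.0929, and that of TRAF3 when any library other than Rk2 replicate 2 was left out, with adjusted p up to 0.0750.

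Other IRF genes were mostly too low to test. IRF4, IRF5, IRF7 and IRF8 were below the filter, and of the 4 tested genes of their list 1 fell and 2 rose, all 3 of the family of IRF2-binding proteins, where 7.23% of all genes fell and 11.0% rose. IRF2BP1, a corepressor that binds IRF2, fell from 31.5 ± 0.978 to 27.0 ± 1.41 CPM (SD, n = 4 each, log2FC -0.22, SE 0.0564, edgeR adjusted p 0.0295). Its relative IRF2BP2 rose from 101 ± 3.26 to 119 ± 2.02 CPM (SD, n = 4 each, log2FC 0.24, SE 0.0378, edgeR adjusted p 0.00492), and so did IRF2BPL (log2FC 0.22, edgeR adjusted p 0.0473). After the gene length correction IRF2BP1 still passed, and IRF2BP2 and IRF2BPL did not (edgeR adjusted p 0.135 and 0.249). The call of IRF2BP1 was lost when any library other than DMSO replicate 1 was left out, with adjusted p up to 0.0675, and that of IRF2BPL when any library other than DMSO replicate 3 was left out, with adjusted p up to 0.126.

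A wider list of 58 interferon-stimulated effectors held calls in both directions. Of its 43 tested genes 1 fell and 4 rose, 11.6% called in all, against 18.2% of all genes, and the median log2FC was -0.07. EIF2AK2, the RNA-activated kinase PKR, was at 28.1, 31.1, 31.0 and 31.4 CPM with DMSO and at 37.6, 38.9, 38.1 and 40.4 CPM with Rk2. The groups were separate, and EIF2AK2 rose (log2FC 0.35, SE 0.0550, edgeR adjusted p 0.00522). Its log2FC was 0.16 after the gene length correction (edgeR adjusted p 0.0401), and limma on log2(FPKM + 1) did not call it (log2FC 0.20, adjusted p 0.233). APOL6, an apolipoprotein L that interferon-gamma induces, rose from 8.95 ± 0.442 to 14.9 ± 0.655 CPM (SD, n = 4 each, log2FC 0.73, SE 0.0675, edgeR adjusted p 6.2e-04), with a log2FC of 0.45 after the gene length correction. TRIM5, which restricts retroviral capsids, rose as well (log2FC 0.56, edgeR adjusted p 0.0130), and its exons overlap those of AC104389.4 on the same strand. LAMP3, a lysosomal membrane protein with 13 to 56 counts per library, rose (log2FC 0.76, edgeR adjusted p 0.0398), a call that DESeq2 did not make (adjusted p 0.0513). PARP9, a partner of the ubiquitin ligase DTX3L, fell (log2FC -0.20, edgeR adjusted p 0.0399), and its exons overlap those of DTX3L on the opposite strand. The call of LAMP3 was lost when any library other than DMSO replicate 3 or 4 was left out, with adjusted p up to 0.0911, and that of PARP9 when any library other than Rk2 replicate 2 was left out, with adjusted p up to 0.0962. RSAD2, IFI44 and XAF1, further interferon-stimulated genes, were listed at 0 FPKM, and OASL, BST2 and IFI44L had 0 to 6 counts per library.

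Among genes that interferon-gamma induces and genes of MHC class I presentation, 21 of 29 were tested, 2 fell and 2 rose, 19.05% called against 18.2% of all genes, and the median log2FC was -0.11. GBP1, a guanylate-binding GTPase, was at 23.3, 22.6, 24.4 and 21.7 CPM with DMSO and at 17.3, 18.8, 16.4 and 17.2 CPM with Rk2. All Rk2 libraries were lower, and GBP1 fell (log2FC -0.40, SE 0.0649, edgeR adjusted p 0.00592). GBP2, of the same family, fell (log2FC -0.25, edgeR adjusted p 0.0290), and its exons overlap those of GBP7 on the same strand. ERAP1, which trims peptides for MHC class I, rose (log2FC 0.34, edgeR adjusted p 0.00808), as did WARS, a tRNA synthetase that interferon-gamma induces (log2FC 0.23, edgeR adjusted p 0.0224). The call of GBP2 was lost without DMSO replicate 1 or 3 or Rk2 replicate 1, 2 or 4, with adjusted p up to 0.0740, and that of WARS without Rk2 replicate 2 or 3, with adjusted p up to 0.0587. CXCL9 and CXCL11, which share a receptor with CXCL10, had 0 to 4 counts per library.

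**Figure D4:**
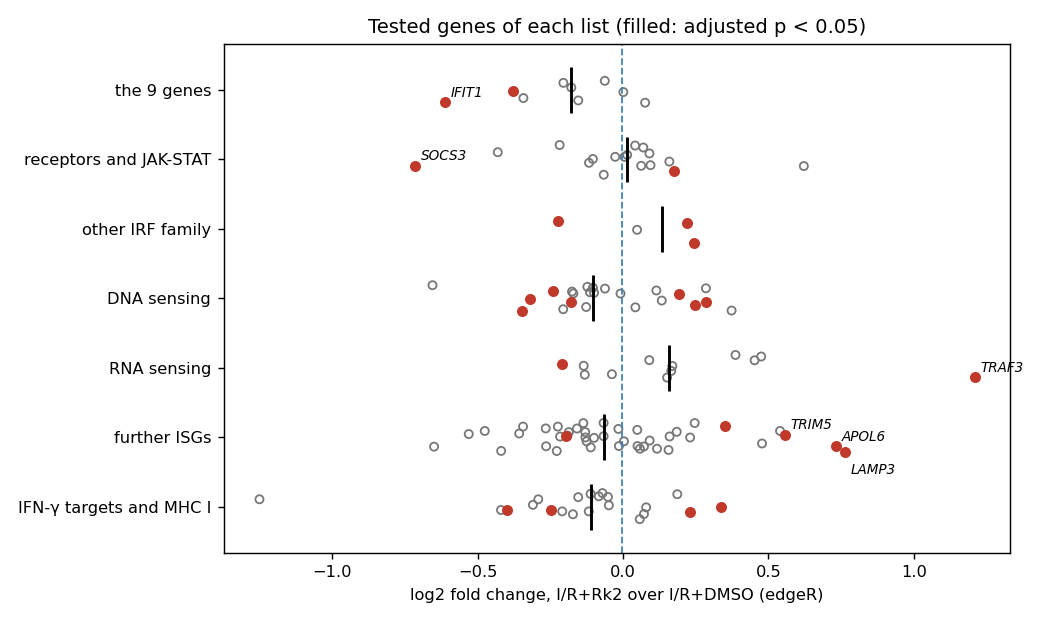
Log2 ratio of I/R+Rk2 to I/R+DMSO for the tested genes of each list, with points spread vertically for visibility. Filled points have an adjusted p-value below 0.05, black bars are the medians of the lists and the dashed line is the median of all 12928 genes tested, and called genes lie on both sides of 0 in each of the 6 other lists drawn, while the 2 calls among the 9 genes are both lower.

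Over these lists together 120 genes outside the 9 were tested, 10 fell and 13 rose, 19.2% called against 18.2% of all genes. Of the 23 called, 9 kept the call whichever library was left out, 16 after the gene length correction and 7 in limma on log2(FPKM + 1), which tested 22 of them. The last 7 were SOCS3, TBK1, IKBKE, POLR3K, IRF2BP2, APOL6 and TRIM5. Exons of EIF2AK2, ERAP1, WARS and POLR3K overlap those of GPATCH11, CAST, WDR25 and SNRNP25 on the opposite strand, whose reads may enter these counts. The 327 tested genes with an ISRE core in their promoter window had a median log2FC of 0.00 (0.00464), with 8.87% called lower and 11.9% higher. The 9690 tested genes with a window and no core had 7.15% called lower and 11.1% higher. For the 778 genes with a GAS match the shares were 6.81% lower and 8.61% higher, against 7.24% and 11.3% of genes without one.

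By the mean profile of ISG15, IFIT1, IFIT3, IFI6 and MX1 over the 8 libraries, on log2 CPM scaled to unit variance, the genes most alike were C4orf48, TIMM13, RPS28, S100A11 and SIGIRR. Their root mean square differences from it were 0.114 to 0.178 SD. The log2FC of C4orf48, TIMM13, RPS28, S100A11 and SIGIRR lay between -0.36 and -0.16, and none of them passed the threshold (edgeR adjusted p 0.113 to 0.166). They were picked by likeness in these same libraries, so the direction of their log2FC follows from the choice and is not a separate result. The same limit holds with a library left out. With 1 library left out the log2FC ranged from -0.38 to -0.15 for C4orf48 and from -0.45 to -0.19 for SIGIRR. For TIMM13, RPS28 and S100A11 these ranges were -0.24 to -0.12, -0.32 to -0.15 and -0.19 to -0.098. After the gene length correction C4orf48 was at -0.059. TIMM13 shares exons with LMNB2 on the same strand. The 5 genes that make up the profile lay further from it, at 0.314 SD for MX1 to 0.911 SD for IFIT3, so the profile follows IFIT3 least among them.

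Markers of hepatocytes were abundant in these cells. All 9 markers were tested, and AFP, ALB, TF, APOB and SERPINA1 were the highest in CPM. AFP, the fetal albumin-like protein of hepatoma cells, had 5929 ± 302 CPM with DMSO and 5930 ± 112 CPM with Rk2 (SD, n = 4 each). APOB, the protein of very low density lipoprotein, rose (log2FC 0.61, edgeR adjusted p 0.0124), with a log2FC of 0.29 after the gene length correction, and FGB, the fibrinogen beta chain, fell (log2FC -0.27, edgeR adjusted p 0.0462). Of 11 markers of immune cells, PTPRC, CSF1R, FCGR3A and CLEC4C were outside the count table and listed at 0 FPKM, and CD3E had 0 to 4 counts. LYZ was the most abundant of the 11 with 645 ± 22.3 CPM with DMSO and 607 ± 45.0 CPM with Rk2 (SD, n = 4 each). The list summed to 699 ± 26.2 CPM with DMSO and 657 ± 44.8 CPM with Rk2 (SD, n = 4 each). CD14, a monocyte marker, had 16, 11, 13 and 24 counts with DMSO and 7, 5, 6 and 10 counts with Rk2, and fell (log2FC -1.25, edgeR adjusted p 0.0430). The call of FGB was lost when any library other than Rk2 replicate 1 was left out, with adjusted p up to 0.106, and that of CD14 when any library other than DMSO replicate 2 or Rk2 replicate 4 was left out, with adjusted p up to 0.102. Of 6 markers of endothelium and fibroblasts, PECAM1, COL3A1 and PDGFRB were tested, and none of the 3 passed. Called were 2 of the 9 hepatocyte markers and 1 of the 3 tested immune markers, where 18.2% of all genes were called. The libraries are of the HuH7 line alone, so these markers give RNA levels in that culture and not shares of cell types. Whether fewer expressing cells or less RNA per cell lay behind a change was not tested.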

How the data were processed

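RNA-seq of 8 libraries of HuH7 cells was analysed, 4 per group, as the labels assign them. The authors prepared them with an MGIEasy kit for a BGISEQ platform. The submitters' processing notes name FastQC 0.11.5, HISAT2 2.2.1, StringTie 1.3.3 and the build hg38, while the annotation and the counting tool are not given in the sources used here. The authors deposited raw counts per gene symbol and, in a separate table, FPKM.

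With R 4.3.3, genes reaching 10 counts in 4 or more libraries were tested on the counts with edgeR 4.0.16 (TMM, robust quasi-likelihood test, Benjamini-Hochberg adjustment over all genes tested). SE is the log2FC divided by the root of the F statistic, and a 95% interval is 1.96 SE to each side. The code was tested on simulated counts. Alternatives were DESeq2 1.42.0, limma 3.58.1 on log2 FPKM plus 1 or 0.1 (mean FPKM of 0.5 or more, or unfiltered), voom, other size factors and count filters, a replicate block, a loess correction for gene length (span 0.5) and leaving out each library. Named are the 9 genes, up to 8 genes with an adjusted p-value below 0.05 per hand-compiled list, chosen sensors and signaling genes, the most abundant markers and the 5 genes most alike in profile, while other names are list members given as values or genes sharing exons. The 9 genes and the lists were chosen with earlier results of these data known. Date-like symbols, 22 in the count table, were matched to no gene. Promoter sequences are from RefSeq. Some list members enter the counts and are not reported here by name.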

Additional observations from a re-analysis of the deposited data

Results flagged for a closer look

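Of 18 sets of 4 libraries (9 genes in 2 groups), 3 held a library far from the other 3, by the gap to its neighbour over the range of the set. Chance flags about 1 in 20 such sets. ISG15 was at 33.3 CPM in replicate 1 of I/R+DMSO, with the others between 25.3 and 26.5. IFIT3 was at 5.02 CPM in replicate 3 of I/R+Rk2, with the others between 4.29 and 4.42. MX1 was at 16.7 CPM in replicate 4 of I/R+Rk2, with the others between 19.6 and 20.1.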

How the results depend on the processing

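For the 9 genes, none was called higher under any alternative, and the number called lower was 2 with all libraries, 0 to 2 with 1 library left out, 3 in DESeq2, with DESeq2's size factors, with upper-quartile factors and in voom, 1 with scaling by library size only, with the replicate block and with the gene length correction, and 0 in the 3 limma runs on FPKM, which were log2(FPKM + 1), log2(FPKM + 0.1) and log2(FPKM + 1) without a filter. The log2FC of IFI6 did not pass at -0.34 with library size only, at -0.32, -0.33 and -0.32 in the limma runs and at -0.23 with the length correction, and ranged from -0.43 to -0.27 with a library left out. That of IFIT1 did not pass at -0.088, -0.22 and -0.088 in the limma runs, nor at -0.61 with the replicate block, and ranged from -0.70 to -0.50 with a library left out. Same-numbered libraries did not deviate together (correlations of -0.00945 to 0.0845), so they were not taken as pairs. IFIT1 was not tested under a minimum of 50 counts. IRF3 passed at -0.34 in DESeq2, with DESeq2's size factors and with at least 50 counts, at -0.37 with upper-quartile factors and at -0.28 in voom, and ranged from -0.40 to -0.24 with a library left out. The near-0 log2FC of IFIT3 changed sign to -0.00391 in DESeq2, -0.00043 with its size factors, -0.027 with upper-quartile factors, -0.00138 with at least 50 counts and -0.031 with the length correction (-0.052 to 0.052 with a library left out). That of IRF9 became 0.00706, 0.00638 and 0.00706 in the limma runs and 0.058 with the length correction. Signs also changed for IFNAR2 (0.065, 0.070 and 0.065 in the limma runs, -0.22 to 0.044 with a library left out), JAK1 (-0.11 with the length correction, -0.00866 to 0.067 with a library left out), S100A11 (0.034) and TRIM56 (-0.067) with the length correction, STAT2 (-0.00876 to 0.14 with a library left out) and TYK2 (-0.014 with upper-quartile factors, -0.16 in each limma run, -0.022 to 0.036 with a library left out). Over all genes the limma runs called 1121, 1106 and 971 genes, 309, 308 and 264 lower and 812, 798 and 707 higher, and 210, 341 and 186 past 1.5-fold, and 1291 to 2282 genes were called with a library left out (430 to 887 lower, 861 to 1414 higher). In the receptor list the fall was 0 genes with at least 50 counts and 2 with the block, and the rise was 0 genes with upper-quartile factors, in limma, with the block and with the length correction (0 to 1 with a library left out). In the IRF list the falls were 0 in limma and with the block (0 to 1 with a library left out), and the rises were 1 with DESeq2's or upper-quartile factors, without a count filter, in limma and with the block, and 0 with the length correction (1 to 2). In the DNA list the falls were 2 with library size only, in the first 2 limma runs and with the block, and 1 in the third limma run (2 to 3), and the rises were 5 in DESeq2, with library size only and in voom (0 to 4). In the RNA list the falls were 0 with library size only, in limma and with the block, 2 in voom and 3 with the length correction (0 to 2), and the rises were 2 with library size only or at least 50 counts and 0 in limma and with the block (0 to 1). In the list of effectors the falls were 2 in DESeq2, with upper-quartile factors and with at least 50 counts, 0 with library size only, without a count filter, in limma and with the block, and 3 with the length correction (0 to 1), and the rises were 2 in limma and with the block (3 to 4). In the interferon-gamma list falls and rises were 0 in limma (1 to 2 each with a library left out). The causes were not tested. All 9 genes passed the count filter, so the alternatives planned for genes under it were not run. Counts per library were few for IFIT1, CXCL10, LAMP3 and CD14, and list genes below the count filter were not tested.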
